A study of Homo sapiens with 6 samples.

Results

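Collagens are the triple-helical proteins of the extracellular matrix, and their genes were followed here in Huh-7, a line of human liver cancer cells, with and without metformin, an antidiabetic drug. A gene was taken as a collagen gene when its Ensembl ID belonged to a protein-coding gene with a symbol made of COL, a number, A and a number. Of 44 such genes in the GENCODE 44 annotation of GRCh38, 43 were among the 35840 genes of the table, and COL6A5 was not analysed here. The metformin group was 3 libraries of cells given 20 mM metformin for 48 h (replicates 1 to 3; the dose is that of the methods, and another is named elsewhere in the study's text), and the control group was 3 libraries of the same line without the drug for 48 h (replicates 4 to 6). Cells of both groups had been starved before treatment, and all libraries came from polyA RNA of this 1 line grown in plates. The labels do not say whether the replicates were separate cultures. The methods say that total RNA was pooled from cells, without saying how the pool relates to the 3 libraries of a group. A general statement there on independent trials does not name these libraries, so p-values measure only the spread between these libraries.

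A collagen molecule has 3 chains, called alpha chains, which are either copies of 1 gene product or products of several genes. The chains are hydroxylated and folded in the endoplasmic reticulum, exported, trimmed outside the cell and joined by cross-links. Fibrillar collagens form the cables of connective tissue, and FACIT collagens (fibril-associated collagens with interrupted triple helices) sit on the surface of those cables. Type IV chains form the sheet-like network of basement membranes, type VI chains form beaded filaments, and multiplexins carry sugar chains and border basement membranes. In the liver most fibrillar collagen is made by stellate cells and fibroblasts during fibrosis, while hepatocytes make little of it.

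The 6 type IV genes are arranged in head-to-head pairs, COL4A1 with COL4A2 on chromosome 13, COL4A3 with COL4A4 on chromosome 2 and COL4A5 with COL4A6 on chromosome X. Both genes of a pair start within a short stretch of DNA and are read in opposite directions. The stretches are shown because the expression of each pair is compared below. Each sequence ends at the base before the RefSeq start of the first gene named and reaches back to the annotated start of its partner, or 250 bases where the partner lies farther away. They are on the plus strand of GRCh38.p14 (RefSeq), at chr13:110307158-110307283, chr2:227164454-227164623 and chrX:108439588-108439837. Capitals mark matches to CCAAT and GGGCGG on either strand, and no TATAAA was found in them.
COL4A2 from COL4A1: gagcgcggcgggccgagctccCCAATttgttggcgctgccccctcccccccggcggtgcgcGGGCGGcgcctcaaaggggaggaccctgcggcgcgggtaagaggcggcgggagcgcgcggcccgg
COL4A3 from COL4A4: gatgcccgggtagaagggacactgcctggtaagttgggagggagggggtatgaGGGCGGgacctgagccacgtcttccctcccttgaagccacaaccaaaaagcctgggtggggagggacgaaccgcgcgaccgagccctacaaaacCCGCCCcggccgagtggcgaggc
COL4A5 from COL4A6: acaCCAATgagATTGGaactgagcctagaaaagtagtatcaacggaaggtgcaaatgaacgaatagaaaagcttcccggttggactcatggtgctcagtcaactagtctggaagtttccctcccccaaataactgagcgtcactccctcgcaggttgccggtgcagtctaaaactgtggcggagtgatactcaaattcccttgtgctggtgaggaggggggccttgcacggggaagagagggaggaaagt

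The COL4A2 and COL4A1 stretch was 126 bases long with 80.2% G and C, and held 1 CCAAT and 1 GGGCGG. The COL4A3 and COL4A4 stretch of 170 bases had 65.9% G and C and held 2 GGGCGG. The COL4A5 and COL4A6 stretch of 250 bases had 51.2% G and C and held 2 CCAAT. Among 35116 RefSeq promoter windows of 300 bases, CCAAT occurred in 34.6%, GGGCGG in 45.0% and TATAAA in 11.5%, on either strand, so these letters are common.

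Expression was measured as FPKM (fragments per kilobase of exon, scaled to the mapped fragments of a library), which allows levels of different genes to be set side by side. Such comparisons between genes depend on the exon length taken for each gene. Library totals, rebuilt from the FPKM steps, were 17241997 to 18464783 fragments in metformin and 17192221 to 17835152 in control libraries. Pearson correlations of log2(FPKM + 1) over genes were 0.987 to 0.992 within metformin, 0.988 to 0.990 within control and 0.888 to 0.906 between the groups. All 10 hepatocyte markers reached a mean of 1 FPKM in a group, with summed levels of 1435 to 1576 FPKM in metformin and 2442 to 2547 FPKM in control libraries. Of 10 stellate cell and fibroblast markers in the table, 2 did (LUM and PDGFRA), with sums of 35.7 to 49.1 FPKM and 102.7 to 115.3 FPKM. LUM, the proteoglycan lumican, made up most of that sum, while ACTA2 was at most 0.0195 FPKM in metformin and 0.0586 FPKM in control libraries. No endothelial marker of 6 reached 1 FPKM (sums of 0.537 to 1.12 and 0.40 to 0.627 FPKM, TEK at 0). The 6 leukocyte markers summed to 6.43 to 11.01 and 25.3 to 37.9 FPKM, with CD14 above 1 FPKM in every library, LYZ above it only in control libraries and CD68 at 0. These sums were lower in every metformin library for the hepatocyte, stellate cell and leukocyte lists, but a sum follows its most abundant genes. In the test described below, 7 of the 10 hepatocyte markers were lower and 1, APOA2, was higher, against 44.1% and 28.9% of all genes. The part of these markers in the collagen results was not tested. Cells were measured in bulk, so fewer cells expressing a gene and less RNA of it per cell cannot be told apart.

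Of the collagen genes that reached 1 FPKM, most were lower in metformin libraries and a few were higher. The genes whose metformin or control mean reached 1 FPKM were tested with limma on log2(FPKM + 1), with p-values adjusted by Benjamini and Hochberg over 13094 genes, and 17 of the 43 collagen genes were among them. Of these 17, 11 were lower and 3 higher at an adjusted p under 0.05, and 3 did not pass. Over all genes tested 44.1% were lower and 28.9% higher, so a change in either direction was common. The median log2 fold change was -0.68 for the 17 collagen genes and -0.14 for all genes. With the added criterion of a log2 fold change beyond 1 in size (DEG), COL16A1 was higher and COL9A2 lower, against 4.88% of all genes higher and 10.7% lower. The values of the groups did not overlap for 15 of the 17, against 76.7% of all genes tested. Scaling the libraries by median-of-ratios factors moved the median of all genes up by 0.20, and 10 collagen genes were then lower and 4 higher, beside 4357 genes (33.3%) lower and 5291 (40.4%) higher over all, and COL9A2, at -0.97, was no longer a DEG. The remaining 26 collagen genes were below the minimum, where few fragments stand behind each value.

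**Figure D1:**
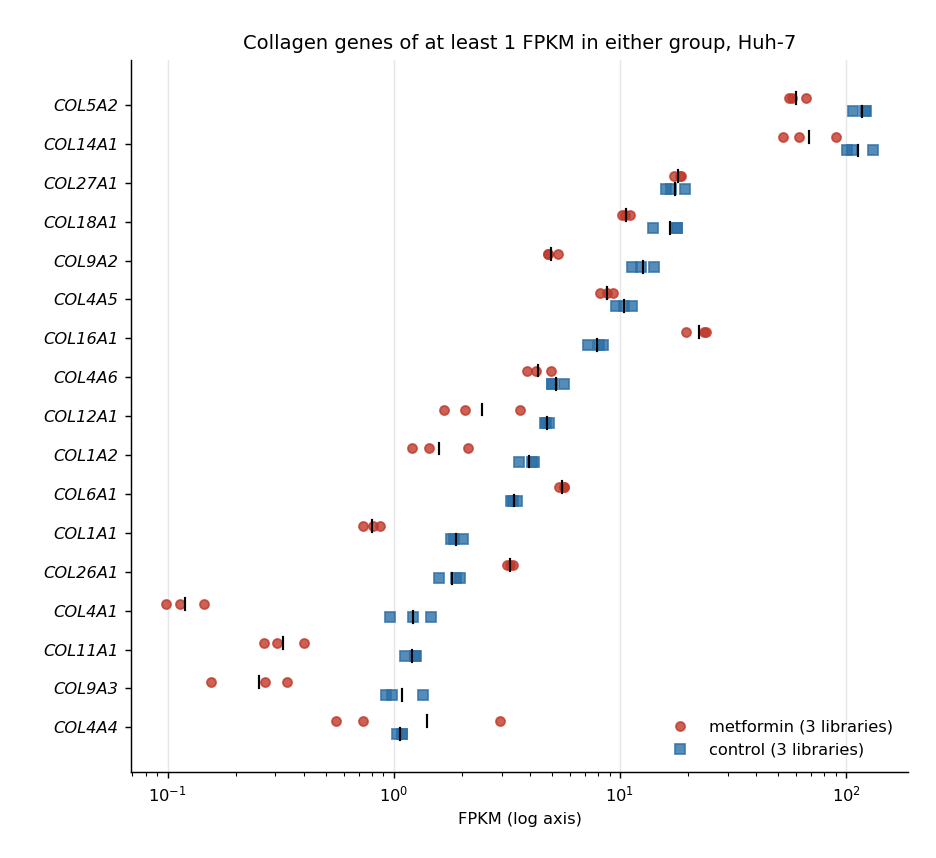
FPKM of the 17 tested collagen genes on a log axis, with 1 point per library, metformin libraries drawn above control libraries and a bar at each group's mean. COL5A2 and COL14A1 lie highest in both groups, and COL16A1 is the gene whose metformin libraries lie farthest above its control libraries.

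**Figure D2:**
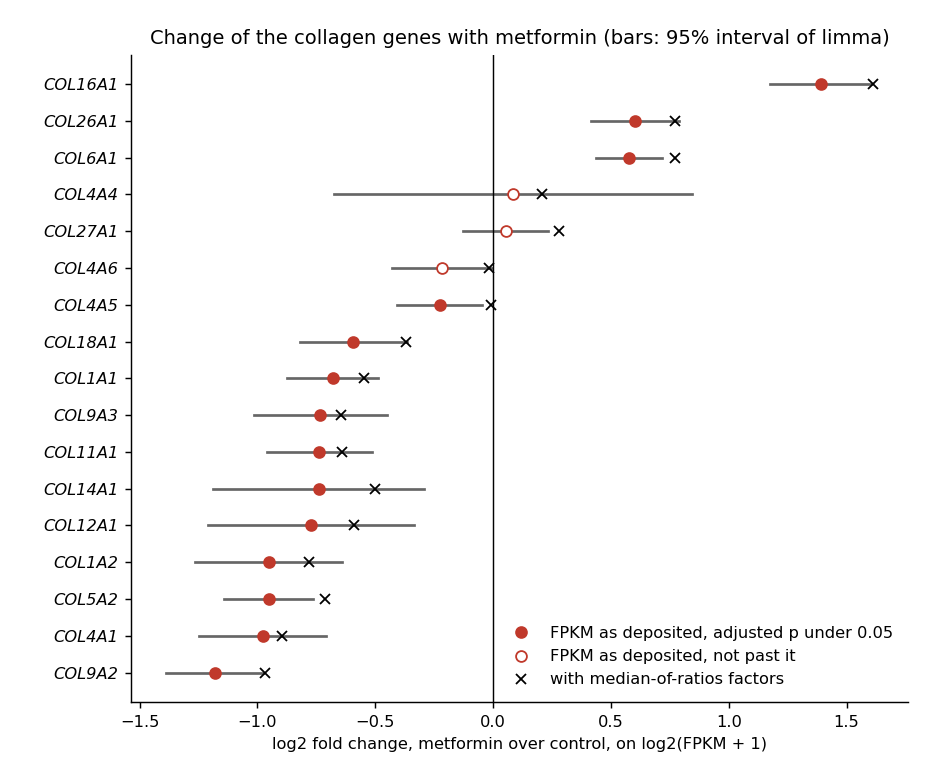
Log2 fold change (metformin over control, log2(FPKM + 1) scale) of the 17 tested collagen genes with 95% confidence intervals from limma, open points for genes that did not pass and crosses for median-of-ratios factors. COL16A1 lies at 1.39 and COL9A2 at -1.18, and the interval of COL4A4 is the widest, -0.67 to 0.84.

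Among the fibrillar collagens, COL5A2 was by far the most abundant, and it fell to about 51% of its control level. COL5A2, on chromosome 2 (189031898 to 189225312, minus strand), encodes the alpha 2 chain of type V collagen, which is built into type I fibrils and helps to set their width. It had 66.5, 57.8 and 56.2 FPKM in metformin libraries, against 108, 121 and 123 FPKM in control libraries. Every metformin library was below every control library. Its log2 fold change was -0.95 ± 0.080 (SE, limma adjusted p = 3.75e-05). COL5A1, the chain with which COL5A2 usually assembles, had 3 fragments in the metformin libraries together and 0 in the control libraries, so no fold is given. COL5A3, another type V chain, had 39 fragments in metformin and 43 in control libraries. The type V genes were thus unequal in level. COL5A2 was 12878 and 5423 times COL5A1 in metformin replicates 1 and 3, the libraries with COL5A1 fragments. These ratios rest on 1 and 2 COL5A1 fragments, so they give only an order of size.

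The type I genes, whose products form the main collagen of bone, skin and scar, were low and fell together. COL1A1 had 0.730, 0.871 and 0.809 FPKM in metformin libraries, against 1.79, 2.03 and 1.85 FPKM in control libraries, a log2 fold change of -0.68 ± 0.083 (SE, limma adjusted p = 0.000223). COL1A2 had 1.21, 1.44 and 2.13 FPKM in metformin libraries, against 4.19, 4.11 and 3.60 FPKM in control libraries, a log2 fold change of -0.95 ± 0.13 (SE, limma adjusted p = 0.000458). Neither gene's groups overlapped, and metformin replicate 3 was the highest of its group in COL1A2. Type I collagen takes 2 chains of COL1A1 for each chain of COL1A2, but the RNA of COL1A2 was the more abundant per length. The ratio of COL1A2 to COL1A1 was 1.65, 1.65 and 2.63 in metformin libraries and 2.33, 2.03 and 1.94 in control libraries, so the groups overlapped in it.

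COL11A1, a chain of the type XI collagen of cartilage fibrils, had 0.306, 0.267 and 0.402 FPKM in metformin libraries, against 1.26, 1.12 and 1.24 FPKM in control libraries. The control mean was 3.72 times the metformin mean, and the log2 fold change on the log2(FPKM + 1) scale, which understates changes of low genes, was -0.74 ± 0.095 (SE, limma adjusted p = 0.000296). Its partner COL11A2 lay at 0.256 ± 0.0593 FPKM in metformin and 0.158 ± 0.0792 FPKM in control libraries (SD, n = 3 each), and the groups overlapped. The ratio of COL11A2 to COL11A1 was 0.825 ± 0.329 in metformin and 0.132 ± 0.0661 in control libraries (SD, n = 3 each), without overlap. COL27A1, a fibrillar collagen of cartilage, was the third most abundant member in control libraries and did not pass the test. It had 18.7, 18.4 and 17.3 FPKM in metformin libraries, against 19.4, 16.9 and 16.1 FPKM in control libraries, a log2 fold change of 0.05 with a 95% interval of -0.13 to 0.23 (limma adjusted p = 0.546). With median-of-ratios factors it was 0.28 (adjusted p = 0.0119).

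FACIT collagens held both the member with the strongest rise and the one with the strongest fall on the test's scale. COL16A1, on chromosome 1 (31652263 to 31704319, minus strand), encodes a minor collagen found with fibrils in cartilage and with microfibrils in skin. It had 23.6, 24.0 and 19.6 FPKM in metformin libraries, against 8.12, 8.4 and 7.23 FPKM in control libraries. The metformin mean was 2.83 times the control mean, with a log2 fold change of 1.39 ± 0.091 (SE, limma adjusted p = 1.26e-05). COL16A1 shares 117 exon bases with PEF1-AS1 on the opposite strand, a gene at 0.824 FPKM in metformin and 0.154 FPKM in control libraries on average. Whether the authors counted by strand is not stated, and the part of those bases in the result was not tested.

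COL9A2, on chromosome 1 (40300489 to 40317813, minus strand), encodes a chain of type IX collagen, which coats type II fibrils in cartilage. It had 5.32, 4.81 and 4.79 FPKM in metformin libraries, against 14.2, 12.3 and 11.3 FPKM in control libraries, a log2 fold change of -1.18 ± 0.087 (SE, limma adjusted p = 2.09e-05). COL9A3, another chain of the same molecule, had 0.156, 0.269 and 0.336 FPKM in metformin libraries, against 1.35, 0.987 and 0.927 FPKM in control libraries. Its control mean was 4.30 times its metformin mean (log2 fold change -0.73 ± 0.12 (SE), limma adjusted p = 0.00103). Both chains were lower without overlap, while their partner COL9A1 had 2 fragments in metformin and 3 in control libraries. COL9A3 shares 155 exon bases with TCFL5 on the opposite strand, which averaged 4.10 FPKM in metformin and 3.73 FPKM in control libraries.

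COL14A1 and COL12A1 encode large FACIT collagens that bind type I fibrils, and both were lower. COL14A1, on chromosome 8 (120059780 to 120373573, plus strand), had 52.8, 62.2 and 90.2 FPKM in metformin libraries, against 131, 101 and 106 FPKM in control libraries. The groups did not overlap, but metformin replicate 3 lay closer to the control mean than to the mean of the other metformin libraries. The log2 fold change was -0.74 ± 0.19 (SE, limma adjusted p = 0.00931). COL12A1 had 1.67, 2.06 and 3.63 FPKM in metformin libraries, against 4.86, 4.65 and 4.70 FPKM in control libraries, a log2 fold change of -0.77 ± 0.19 (SE, limma adjusted p = 0.00682). Again replicate 3 was the highest of the metformin group, and the fold without it was -1.01 for COL12A1 and -0.95 for COL14A1.

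COL22A1, a FACIT collagen known from tissue junctions such as that of muscle and tendon, stayed below the minimum of the test but changed on rebuilt fragments. Fragments were tested with limma-voom in the 17565 genes with at least 30 fragments over the 6 libraries, of which 23.8% were higher and 44.1% lower at an adjusted p under 0.05. Of the 43 collagen genes 30 were tested this way, 5 were higher and 15 lower. As DEG, 2 were higher and 8 lower, against 7.46% and 24.1% of all genes on fragments. COL22A1 had 140, 120 and 111 fragments in metformin libraries, against 24, 20 and 20 in control libraries, which is 0.895 ± 0.12 and 0.156 ± 0.0175 FPKM (SD, n = 3 each). The log2 fold change was 2.49 ± 0.24 (SE, voom adjusted p = 5.77e-06), the largest rise among the 30. COL19A1 had 19 fragments in metformin and 25 in control libraries and did not pass, and it shares 85 exon bases with LMBRD1 on the opposite strand, which averaged 61.2 FPKM in metformin and 38.4 FPKM in control libraries. COL20A1 had 2 and 0 fragments and COL21A1 had 5 and 11, which was too few for the test.

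Type IV collagen differed between its pairs. COL4A1, on chromosome 13 (110148963 to 110307157, minus strand), encodes the alpha 1 chain of the network found in nearly all basement membranes. It had 0.0988, 0.146 and 0.113 FPKM in metformin libraries, against 0.967, 1.46 and 1.21 FPKM in control libraries. The control mean was 10.2 times the metformin mean, from 104 fragments in metformin and 1044 in control libraries, and the log2 fold change was -0.98 ± 0.11 (SE, limma adjusted p = 0.000182) on the log2(FPKM + 1) scale and -3.32 ± 0.27 (SE, voom adjusted p = 1.88e-06) on fragments. COL4A2, the partner chain, had 0.0730, 0.0622 and 0.0799 FPKM in metformin libraries, against 0.0988, 0.193 and 0.14 FPKM in control libraries. It was also lower, with a log2 fold change of -0.95 ± 0.31 (SE, voom adjusted p = 0.0188). The network molecule takes 2 COL4A1 chains for each COL4A2 chain. The ratio of COL4A2 to COL4A1 was 0.739, 0.428 and 0.705 in metformin libraries and 0.102, 0.132 and 0.116 in control libraries, so this pair with a shared promoter stretch was unequal in level and in fold.

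COL4A5 and COL4A6 encode chains of more restricted basement membranes and were the most abundant type IV genes. COL4A5 had 8.76, 9.37 and 8.20 FPKM in metformin libraries, against 9.60, 10.4 and 11.3 FPKM in control libraries. Its log2 fold change of -0.23 ± 0.076 (SE, limma adjusted p = 0.0287) was small, and it lost its call with median-of-ratios factors (-0.01, adjusted p = 0.910), without the filter on low values (adjusted p = 0.0578) and without metformin replicate 1 or 3 or control replicate 5 or 6 (adjusted p = 0.0627, 0.0767, 0.0745 and 0.0903). COL4A6 had 4.96, 4.24 and 3.88 FPKM in metformin libraries, against 4.9999, 4.996 and 5.63 FPKM in control libraries, a log2 fold change of -0.22 (limma adjusted p = 0.0619). COL4A6 passed on fragments (-0.26, voom adjusted p = 0.0370), where the median of all genes was -0.27. It also passed without metformin replicate 1 (limma adjusted p = 0.0168). With median-of-ratios factors it was -0.02 (limma adjusted p = 0.876) and with quantile normalization -0.08 (limma adjusted p = 0.443). The ratio of COL4A6 to COL4A5 was 0.497 ± 0.0606 in metformin and 0.499 ± 0.0208 in control libraries (SD, n = 3 each).

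COL4A3 and COL4A4, which encode chains of the kidney glomerular basement membrane and are mutated in Alport syndrome, differed more among metformin libraries than between the groups. COL4A4 had 0.555, 0.728 and 2.94 FPKM in metformin libraries, against 1.03, 1.09 and 1.09 FPKM in control libraries. COL4A3 had 0.152, 0.374 and 1.72 FPKM in metformin libraries, against 0.918, 0.707 and 0.618 FPKM in control libraries. In both genes metformin replicates 1 and 2 lay below every control library and replicate 3 lay above every control library. The log2 fold change of COL4A4 was 0.08 with all libraries (limma adjusted p = 0.824) and -0.34 without metformin replicate 3 (adjusted p = 0.0275). Without that library COL4A3 averaged 0.263 FPKM in metformin and 0.748 FPKM in control libraries. On the FPKM + 1 scale, which understates folds of low genes, metformin replicate 3 was over 2-fold above both other metformin libraries in 50 of the 13094 genes. For replicates 1 and 2 the counts were 19 and 24. COL4A3 shares 838 exon bases with MFF-DT on the opposite strand, which averaged 0.247 FPKM in metformin and 0.314 FPKM in control libraries.

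**Figure D3:**
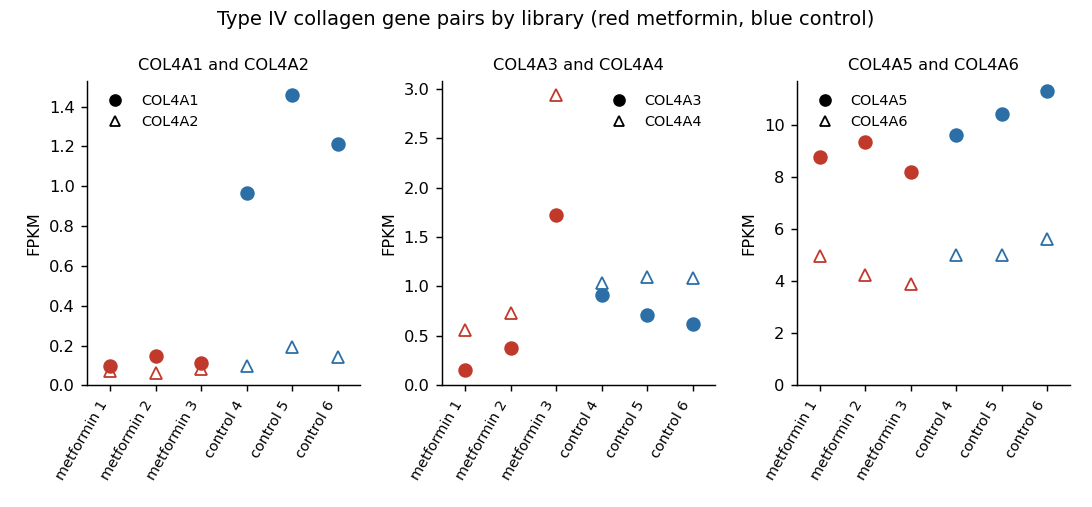
FPKM of the 6 type IV collagen genes in each library, 1 panel per pair on a linear axis from 0, metformin libraries left of control libraries. COL4A1 is near 0.1 FPKM in the metformin libraries and near 1 FPKM or above in the control libraries, COL4A5 and COL4A6 differ little, and replicate 3 is high for COL4A3 and COL4A4.

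Type VI collagen, the beaded filament that surrounds many cells, had higher COL6A1 and COL6A2 in metformin libraries. COL6A1 had 5.35, 5.67 and 5.66 FPKM in metformin libraries, against 3.52, 3.30 and 3.36 FPKM in control libraries, a log2 fold change of 0.58 ± 0.060 (SE, limma adjusted p = 9.58e-05). COL6A2 had 0.612, 0.523 and 0.538 FPKM in metformin libraries, against 0.351, 0.468 and 0.324 FPKM in control libraries, and was higher on fragments (log2 fold change 0.55 ± 0.22 (SE), voom adjusted p = 0.0468). Neither gene's groups overlapped. COL6A3, the longest chain, had 15 fragments in metformin and 4 in control libraries, a ratio of 3.71 with a 95% counting interval of 1.18 to 15.4, which leaves out the spread between libraries. COL6A6 had 2 fragments in metformin and 10 in control libraries, a ratio of 0.198 with a counting interval of 0.0211 to 0.929. The ratio of COL6A2 to COL6A1 was 0.101 ± 0.0119 in metformin and 0.113 ± 0.0255 in control libraries (SD, n = 3 each), so COL6A2, like COL6A3, was well below COL6A1 in RNA level.

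The multiplexin COL18A1 yields endostatin, a fragment that inhibits vessel growth, when its protein is cut. It had 11.05, 10.3 and 10.5 FPKM in metformin libraries, against 18.0, 17.9 and 14.0 FPKM in control libraries, a log2 fold change of -0.59 ± 0.097 (SE, limma adjusted p = 0.000990). The groups did not overlap, though control replicate 6 was below the others of its group. COL18A1 shares 1563 exon bases with SLC19A1 on the opposite strand, which averaged 1.38 FPKM in metformin and 2.72 FPKM in control libraries. COL15A1, the other multiplexin, had 0 fragments in metformin and 1 in control libraries. COL26A1, which fits no main class, had 3.26, 3.38 and 3.16 FPKM in metformin libraries, against 1.89, 1.58 and 1.97 FPKM in control libraries, and was higher without overlap (log2 fold change 0.60 ± 0.079 (SE), limma adjusted p = 0.000334).

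Other collagen genes were below 1 FPKM on average in both groups, and a few of them changed on fragments. COL2A1, the main collagen of cartilage, had 13, 11 and 13 fragments in metformin libraries, against 118, 88 and 84 in control libraries (0.106 ± 0.0137 and 0.838 ± 0.163 FPKM, SD, n = 3 each). The log2 fold change was -2.93 ± 0.31 (SE, voom adjusted p = 1.23e-05). COL28A1, which carries von Willebrand factor A domains, had 47, 73 and 43 fragments in metformin libraries, against 76, 87 and 92 in control libraries (log2 fold change -0.68 ± 0.21 (SE), voom adjusted p = 0.0143). COL10A1, the collagen of hypertrophic cartilage, had 1, 1 and 0 fragments in metformin libraries, against 6, 9 and 8 in control libraries, a ratio of 0.0860 with a 95% counting interval of 0.00983 to 0.348. It was below the 30 fragments of the test. COL7A1, which forms the anchoring fibrils under epithelia, had 144, 158 and 193 fragments in metformin libraries, against 120, 129 and 128 in control libraries, and did not pass (log2 fold change 0.36, voom adjusted p = 0.0523). The median of all genes on fragments was -0.27. The test on fragments was scaled to library totals and was not repeated with median-of-ratios factors, so smaller changes such as those of COL28A1 and COL7A1 depend on that scaling.

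Among low fibrillar genes that did not pass on fragments, COL3A1, a collagen of vessels and of scar, had 110 fragments in metformin and 91 in control libraries. COL24A1 had 133 and 90 fragments, and COL11A2 had 92 and 56. COL8A2, a short-chain network collagen of the cornea, had 47 and 49 fragments, and its relative COL8A1 had 1 in each group. The transmembrane collagens were nearly undetected, with 4 and 3 fragments for COL17A1, 0 and 2 for COL13A1, 2 and 0 for COL25A1 and none in any library for COL23A1. Absence cannot be read from such counts, since 0 fragments allow up to 3. In all, 35, 37 and 36 collagen genes were above 0 in metformin libraries and 34, 38 and 37 in control libraries. At least 1 FPKM was reached by 13, 12 and 15 of them in metformin libraries, against 17, 16 and 16 in control libraries. Over all genes, 11385, 11552 and 11368 reached it in metformin libraries, against 12620, 12645 and 12560 in control libraries, so the count was lower with metformin over the whole table too.

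**Figure D4:**
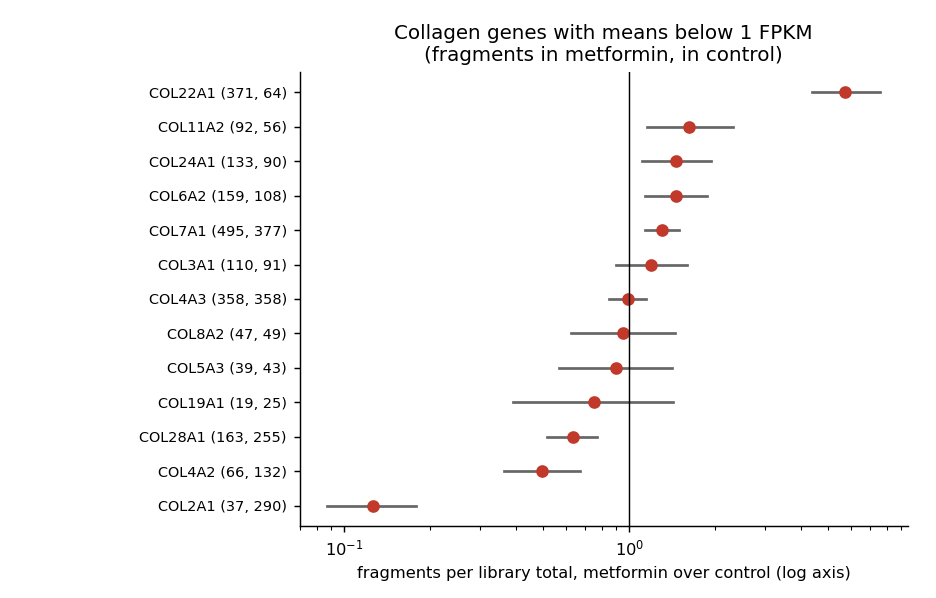
Ratio of fragments per library total (metformin over control, log axis) of the 13 collagen genes with means below 1 FPKM and at least 30 fragments, with 95% counting intervals that leave out the spread between libraries, and the fragments of both groups in brackets. COL22A1 lies at 5.74 and COL2A1 at 0.126, while the ratio of 0.990 for COL4A3 hides the difference of metformin replicate 3 from the other metformin libraries.

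Summed over all 43 genes, collagen RNA was 209, 211 and 236 FPKM in metformin libraries, against 339, 319 and 319 FPKM in control libraries, a ratio of 0.671 (0.793 with median-of-ratios factors). Collagens made up 0.0752% to 0.0862% of all FPKM in metformin and 0.118% to 0.126% in control libraries. Most of this came from 2 genes, as COL5A2 and COL14A1 held 57.1%, 57.0% and 62.1% of collagen FPKM in metformin libraries, against 70.4%, 69.9% and 71.8% in control libraries. By class, the fibrillar sum was 82.0 ± 5.40 FPKM in metformin and 143.4 ± 6.16 FPKM in control libraries (SD, n = 3 each). The FACIT sum was 99.5 ± 18.0 and 139.4 ± 17.7 FPKM, and that of type IV was 15.5 ± 1.26 and 18.8 ± 1.199 FPKM. The type VI sum was higher in metformin libraries, at 6.13 ± 0.136 FPKM against 3.80 ± 0.0860 FPKM. Metformin over control, the fibrillar, FACIT, type IV and type VI ratios were 0.572, 0.714, 0.822 and 1.61 as deposited. With median-of-ratios factors they were 0.676, 0.843, 0.971 and 1.91, so the type IV sums then differed little. These sums are descriptions and were not tested.

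**Figure D5:**
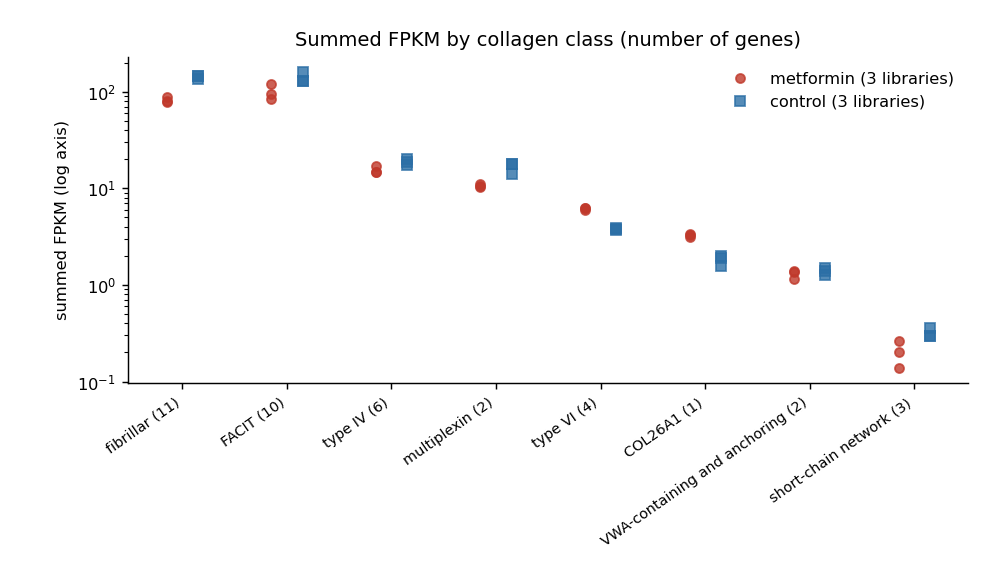
Summed FPKM of each collagen class in each library, as deposited and without median-of-ratios factors, on a log axis. Metformin libraries are left of control libraries, with the number of genes per class in brackets. The fibrillar, FACIT, type IV, multiplexin and short-chain sums are lower in every metformin library than in any control library and those of type VI and COL26A1 are higher, and the transmembrane class is left out because 1 library has a sum of 0.

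Genes that modify, export and degrade collagen moved in both directions, and their counts are to be read against the 44.1% of all genes lower and 28.9% higher. Of 17 tested genes for modification and folding of the chains, 10 were lower and 4 higher (median log2 fold change -0.29, against -0.14 over all genes). P4HA1, the catalytic chain of a prolyl 4-hydroxylase that stabilises the helix, was at 7.77 ± 0.486 FPKM in metformin and 18.9 ± 2.59 FPKM in control libraries (SD, n = 3 each), with a log2 fold change of -1.18 (limma adjusted p = 4.10e-05). P3H4, a partner of lysyl hydroxylation, had -1.17 and FKBP14, a folding enzyme, -0.74. Of 16 genes for export, trimming and cross-linking, 10 were lower and 5 higher (median -0.26), and the count lower was 6 with median-of-ratios factors, under which 33.3% of all genes were lower. LOX, which oxidises lysines to start cross-links, was at 1.88 ± 0.329 FPKM in metformin and 11.4 ± 0.482 FPKM in control libraries (SD, n = 3 each), with a log2 fold change of -2.11 (limma adjusted p = 3.22e-06). LOXL2, an enzyme of the same family, had 6.36, 7.64 and 17.2 FPKM in metformin libraries, replicate 3 again the highest, against 1.74, 1.57 and 1.78 FPKM in control libraries, with a log2 fold change of 1.96 (limma adjusted p = 0.000772), and PCOLCE2, an enhancer of procollagen trimming, had -0.84.

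Of 4 tested collagen receptors 2 were lower and 0 higher (44.1% and 28.9% of all genes), the integrin chains ITGA1 (log2 fold change -0.81, limma adjusted p = 0.000113) and ITGB1 (-0.68, limma adjusted p = 1.06e-05), and with median-of-ratios factors 2 were lower and 2 higher (33.3% and 40.4% of all genes). With quantile normalization or without metformin replicate 1, 1 was higher, beside 4559 and 3568 of all 13094 genes. Of 11 genes of collagen breakdown and its inhibitors, 5 were higher and 3 lower (median 0.03), against 28.9% and 44.1% of all genes. The count lower was 1 with median-of-ratios factors, without control replicate 5 and without the filter on low values. Over all genes, 5311 of 13094 were lower without control replicate 5. Without the filter, 12.3% of all genes were higher and 24.2% lower. TIMP2, an inhibitor of matrix metalloproteinases, was at 9.46 ± 1.06 FPKM in metformin and 3.37 ± 0.0648 FPKM in control libraries (SD, n = 3 each), with a log2 fold change of 1.25 (limma adjusted p = 1.26e-05). TIMP3, another inhibitor, was at 4.81 ± 0.3 FPKM in metformin and 11.3 ± 0.197 FPKM in control libraries (SD, n = 3 each), with a log2 fold change of -1.08 (limma adjusted p = 6.87e-06). CTSB, the lysosomal protease cathepsin B, had a log2 fold change of 0.68 (limma adjusted p = 1.97e-05).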

How the data were processed

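PolyA RNA of Huh-7 cells was sequenced on an Illumina platform in 6 libraries, and the authors filtered the reads, mapped them to GRCh38 and deposited FPKM per gene and library (Cufflinks 2.1.1 per the labels). No aligner is given in the sources used here. Of the 35840 gene IDs 35450 are in GENCODE 44, which gave symbols and coordinates. FPKM values were whole multiples of 1 fragment's value, and whole fragments were rebuilt for 31777 genes (relative tolerance 1e-08). Gene fragments sum to 1.16 to 1.17 times the library total, so some fragments count in more than 1 gene. Genes whose metformin or control mean reached 1 FPKM were tested in limma 3.58.1 (R 4.3.3) on log2(FPKM + 1), two-sided, with all 6 libraries, no covariate and Benjamini-Hochberg adjustment, and fragments in limma-voom. Both fits were tested on simulated data. Of the genes called there, 13.5% were unchanged genes with limma on log2(FPKM + 1) and 4.2% with voom. Far fewer genes were changed in the simulation than passed in these data, so these shares do not give the error of either fit here. Alternatives were a pseudocount of 0.1, no filter, median-of-ratios factors, quantile normalization, voom and leaving out each library. Intervals and floors cover counting error only. Chain ratios were planned for pairs whose chains both reached 1 FPKM, and those of lower pairs are given as descriptions. All members are accounted for, and up to 3 genes per list with the largest change past the threshold are named. The members and lists were chosen with earlier results of these data known.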

Additional observations from a re-analysis of the deposited data

How the results depend on the processing

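With a pseudocount of 0.1 and with quantile normalization, 3 of the 17 collagen genes were higher and 11 lower, as reported. Over all 13094 genes, 3783 were higher and 5737 lower with that pseudocount, and 4559 and 4778 with quantile normalization. Without the filter, 4 of 42 collagen genes were higher and 12 lower, against 12.3% and 24.2% of all genes. The median log2 fold change was then -0.015 for collagen genes and -0.044 for all genes. On rebuilt fragments (voom), where 30 collagen genes could be tested, 5 were higher and 15 lower (23.8% and 44.1% of all genes). Of these, 2 passed as DEG higher and 8 as DEG lower (7.46% and 24.1% of all genes). The count of DEG lower, reported as 1, was 6 with a pseudocount of 0.1 and 0 with median-of-ratios factors. It was 1 to 3 when each library was left out. Shares over all genes are not given for these settings, so these counts cannot be set against the 10.7% of the main fit. At the pseudocount of 1, fold changes of genes near 1 FPKM are compressed, so COL4A1 moved from -0.98 to -2.57 at a pseudocount of 0.1. COL4A4 had a log2 fold change of -0.026 on fragments, and -0.34 to 0.33 when each library was left out. COL27A1 had -0.00143 to 0.13 when each library was left out. The ratio of summed collagen FPKM was 0.793 with median-of-ratios factors. Quantile normalization moved the median of all genes up by 0.11. No paired analysis was possible because metformin and control libraries share no replicate number. With 3 libraries per group and 17192221 to 18464783 fragments each, the 13 collagen genes under 30 fragments were not testable.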
